A study of Mus musculus with 4 samples.

Results

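The mitosis and spindle genes are 49 genes that drive cells through division, chosen by symbol from the 32592 genes measured and grouped by function: cyclins and kinases, kinetochore, checkpoint, motors, condensin and their partners. All 49 were found and all 49 were expressed enough to be tested. Messenger RNA came from CCE cells, a feeder-free mouse embryonic stem cell line of strain 129/Sv kept in serum and leukemia inhibitory factor (LIF), a cytokine that maintains self-renewal. The tested libraries were 2 samples labelled eIF4A2 knockdown, from cells infected with short hairpin RNAs (sheIF4A2-2, sheIF4A2-3) against Eif4a2, an RNA helicase of translation initiation. The other 2 were labelled control and came from cells infected with shLuc or shEV. All cells went through 3 days of puromycin at 1 µg/mL and were harvested on day 4.5. The labels do not say which hairpin each sample received or whether the samples of a group were separate cultures, so p-values measure only how far these samples scatter, a scatter that may be technical.

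A cell enters mitosis when cyclin A and cyclin B activate the kinase CDK1, an activity that CDC25 phosphatases release. Chromosomes condense through condensin and topoisomerase II, kinetochores attach them to a spindle built by kinesins and microtubule factors, and the spindle checkpoint holds the anaphase-promoting complex (APC/C) in check until every chromosome is attached. Embryonic stem cells have a short G1 phase and divide quickly, so genes of this programme are abundant in them. Values are normalized counts, which are reads scaled to an effective library size. Log2 changes are those of log2(normalized counts + 1), the libraries labelled knockdown minus those labelled control, from limma over all 14890 genes tested, and a gene rose or fell when its Benjamini-Hochberg adjusted p was below 0.05. In a bulk sample, fewer cells in mitosis and less RNA per mitotic cell cannot be told apart.

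The libraries held 4604200 to 13681765 reads, with control 2 the shallowest, and every member had at least 91 reads in each library. The targeted gene went against its label: Eif4a2 had 753 and 814 normalized counts in the knockdown-labelled libraries, against 531 and 379 in the control-labelled ones (log2 change 0.80, SE 0.15, limma adjusted p = 0.014). Directions below are therefore those of the libraries labelled knockdown, not of a measured loss of Eif4a2. Pou5f1, a core stem cell factor, was abundant in every library, at 1923 and 1841 in the knockdown-labelled and 2089 and 2305 in the control-labelled libraries. Summed over 10 stem cell markers, the level was 8600 to 8903 in the knockdown-labelled libraries, against 11695 to 11755 in the control-labelled ones. Zfp42, Klf4, Esrrb, Tfcp2l1 and Sox2 fell in the libraries labelled knockdown, and the other 5 did not pass. Summed over 19 fibroblast markers, the level was 1374.5 to 1400.1 in the knockdown-labelled libraries, against 1405 to 1535 in the control-labelled ones, with Fn1 the most abundant. Without Fn1 it was 567 to 628 in the knockdown-labelled libraries, against 439 to 446 in the control-labelled ones. Much of that gap was Cald1, at 244 and 269 in the knockdown-labelled and 136 and 97.8 in the control-labelled libraries. Vim went the other way without passing, at 165 and 190 in the knockdown-labelled and 199 and 224 in the control-labelled libraries. Of the 14 fibroblast markers tested, 5 were higher and Fn1 was lower, and their median log2 change was 0.57. Lum, Dcn and S100a4 were at 0 in every library. The part of either marker list in the changes below was not tested.

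Most mitosis genes did not pass the test. In the libraries labelled knockdown 9 of the 49 fell, 1 rose and 39 did not pass, so 18.4% fell and 2.04% rose, where 12.4% of all genes tested fell and 10.5% rose. Cdc25a, Nek2, Birc5, Ttk, Mad2l1, Ndc80, Cenpf, Kif11 and Smc4 fell, by 1.25-fold (Birc5) to 1.83-fold (Ttk), and Pttg1 rose 2.00-fold. Among the 39 that did not pass, 30 had a log2 change within 0.2 of 0, and the largest was 0.35 in size. The median log2 change was -0.13 over the 49 genes and -0.01 over all genes tested, and it was below 0 for 42 of the 49 (85.7%), against 51.2% of all genes tested. Both libraries labelled knockdown lay below both controls for 28 members (57.1%, against 34.6% of all genes tested). Both lay above for 6 members, against 32.1% of all genes, and the groups overlapped for 15, against 33.2%.

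These counts depended on scaling and on single libraries. With library size as the only scaling, 5 fell and 2 rose, and the median of the members was -0.0042 where that of all genes tested was 0.10, a shift of 0.11 for all genes. With upper-quartile scaling 7 fell and 2 rose. Over all genes, library size only gave 996 lower and 2152 higher and upper-quartile scaling 1329 lower and 1883 higher, against 1851 and 1567 as reported. Without a variance trend in limma 2 fell (4.08%) and 0 rose, with 1 higher at an unadjusted p below 0.05, where 5.80% of all genes fell and 7.17% rose. With recovered reads, edgeR's quasi-likelihood test called 9 lower and 1 higher, against 13.1% and 12.0% of all genes. Leaving out a knockdown-labelled library left 5 falls (without replicate 1) or 2 (without replicate 2), where 4.38% and 2.65% of all genes fell. Leaving out a control-labelled library put the median log2 change of the members at -0.10 (without replicate 1) or -0.16 (without replicate 2). In those fits the median of all genes tested was -0.01 and -0.02. Such a fit assumes that the lone library varies like the remaining pair of the other group, which was tighter among the libraries labelled knockdown (median absolute log2 difference 0.0955) than among those labelled control (0.198). Ranges of adjusted p over the alternatives, given below for single genes, include the fits with 1 library left out, which rest on that assumption. The lowest values of those ranges are not read as strength of evidence. Ttk and Kif11 were called in all 19 alternatives run.

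**Figure D1:**
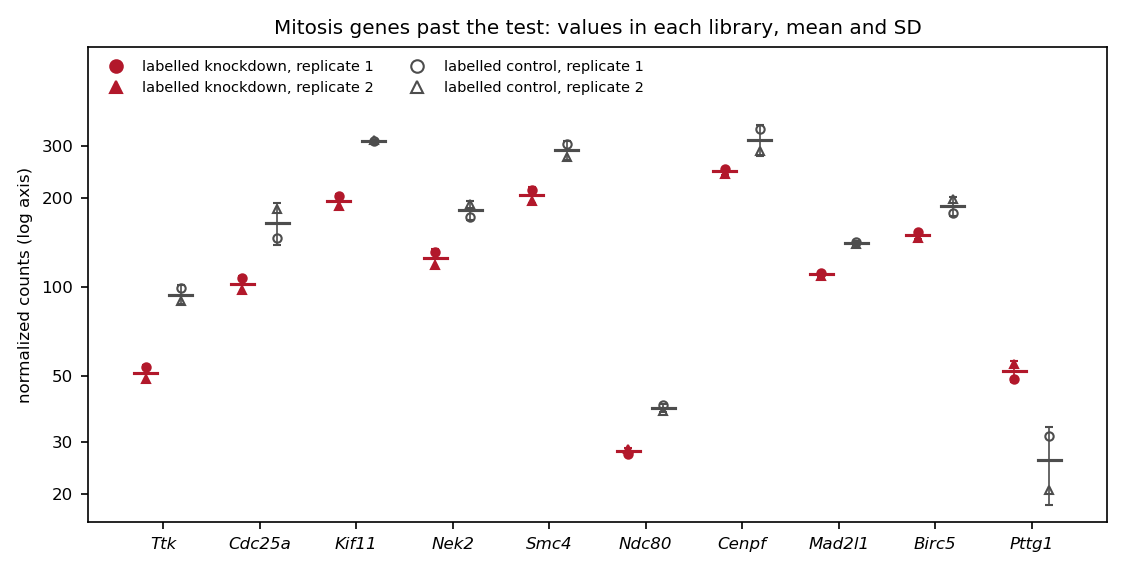
Normalized counts (log axis) of the 10 mitosis genes past the test, 1 point per library, with the mean (bar) and SD (whisker) of the libraries labelled knockdown left of those labelled control. The libraries labelled knockdown lie below both controls for 9 genes, with Ttk at 53.7 and 48.7 in them against 99.4 and 89.6 in the controls, and above both for Pttg1.

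**Figure D2:**
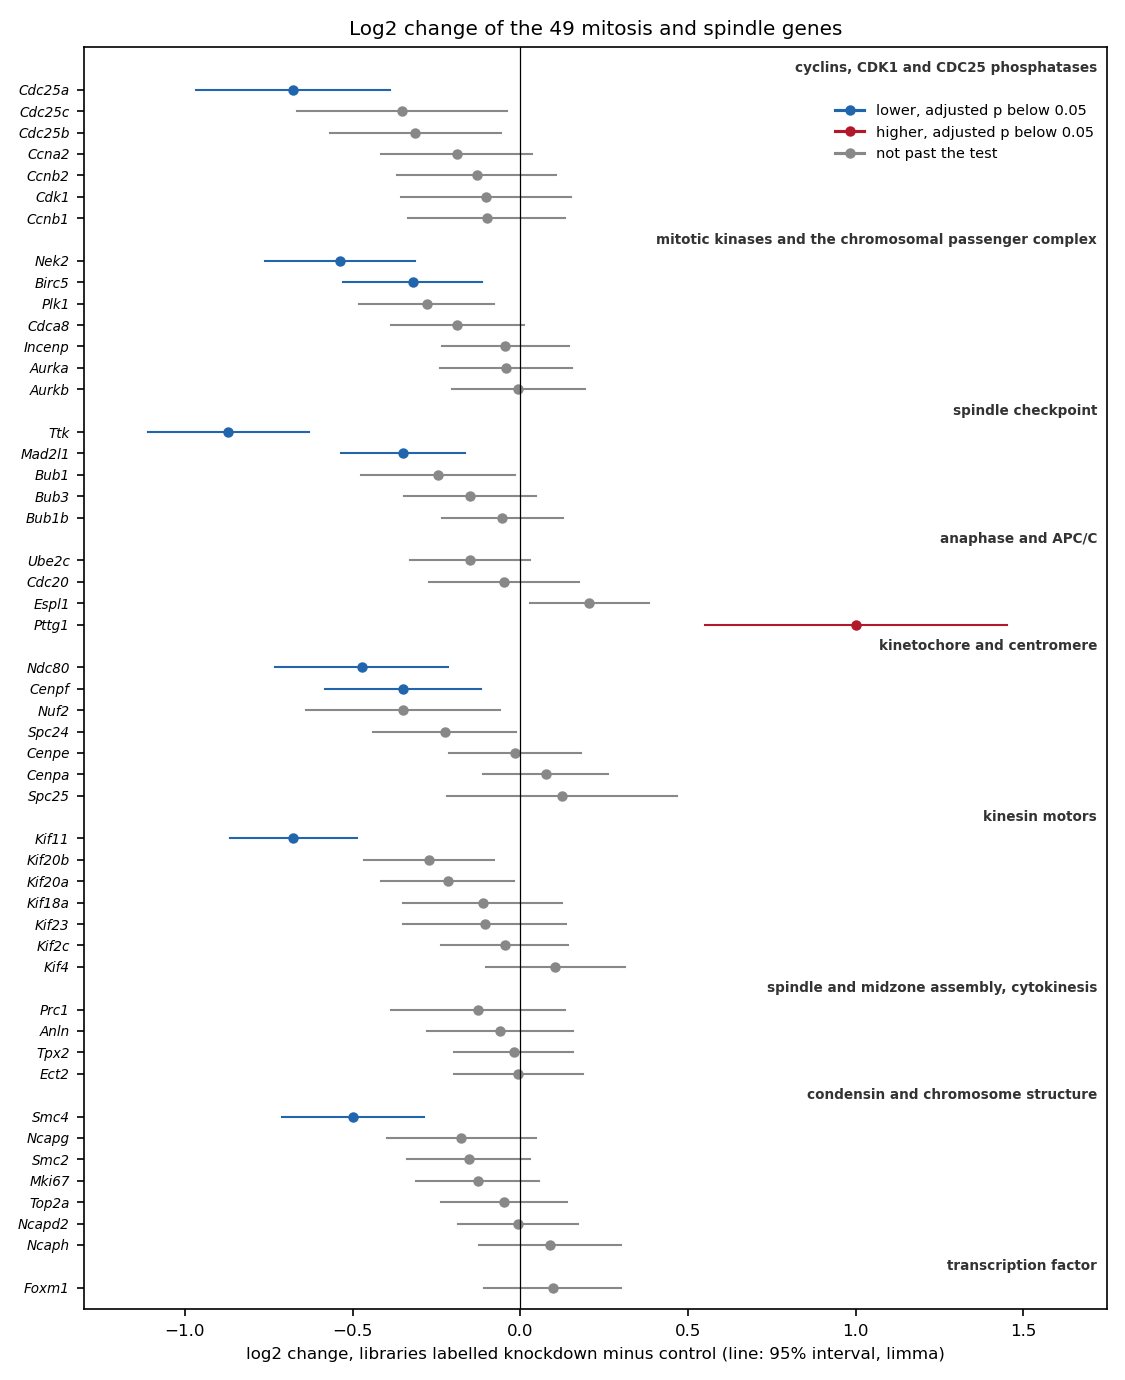
Log2 change of each of the 49 genes (points) with its 95% interval from limma (lines), libraries labelled knockdown minus control, by functional class. The 9 genes that fell lie in 6 of the classes, and most intervals of the other genes cross 0.

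**Figure D3:**
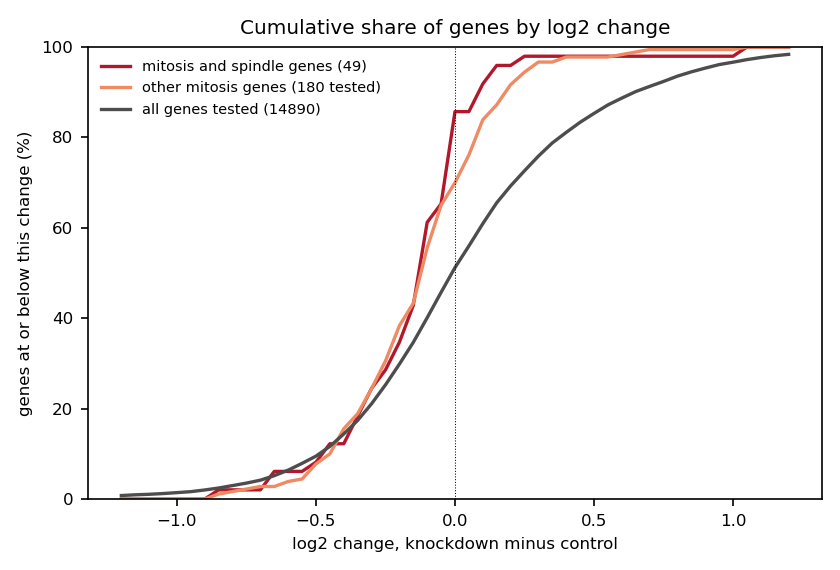
Cumulative share of genes (y axis, %) at or below a log2 change (x axis), for the 49 members, 180 other mitosis genes and 14890 genes tested. At a change of 0 the members' curve stands at 85.7% and that of all genes near 51.2%, while the curve of all genes reaches further out on both sides.

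Promoter sequences are shown because most genes of this programme are driven through the same elements, and the data below bear on members that fell, rose or did not pass. Late cell cycle genes are known to be controlled through the cell cycle homology region (CHR, spelled TTTGAA here, with the variant TTCGAA searched too), which MuvB complexes bind, and through CCAAT boxes, which NF-Y binds. RefSeq promoters on GRCm38.p6, 250 bases before to 50 bases after each start, matched 40 of the 49 members. A member was counted when any of its starts held the motif, and 3 members have 2 starts. The shares of all promoters are of single promoters, so the units differ. Searched on both strands, TTTGAA lay in 28 of the 40 (70%), against 17.9% of all 32851 promoters of that length, and CCAAT in 30 of the 40 (75%), against 37.4%. TTCGAA, which reads the same on both strands, lay in 4 (10%), against 1.56%. The 3 spellings searched of the E2F site, TTTCCCGC, TTTGGCGC and TTTCGCGC, lay in 1, 3 and 1 of the 40, against 1.07%, 0.514% and 0.323% of all promoters. None of these motifs shares its letters in full with another. TTTGAA was present in 4 of the 8 members that fell and have a promoter here (Cenpf, Kif11, Ndc80 and Ttk) and in 24 of the 31 that did not pass.

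The windows below run from 120 bases before to 30 bases after the start, 5′ to 3′ on the gene's strand, with both CHR spellings and the CCAAT box in capitals wherever they lie on either strand. Ttk and Kif11 had the smallest p of the members that fell, and Nek2 and Cenpf fell too. Pttg1 alone rose, and Cdc20 and Top2a are abundant members that did not pass. The choice does not follow the order of p: Cdc25a (limma adjusted p = 0.0124) came before Cenpf (limma adjusted p = 0.0435) and is not shown. The share of these windows with a CHR is therefore not that of the members that fell, of which 4 of 8 held TTTGAA.
Ttk, chr9:83834569-83834718, plus strand: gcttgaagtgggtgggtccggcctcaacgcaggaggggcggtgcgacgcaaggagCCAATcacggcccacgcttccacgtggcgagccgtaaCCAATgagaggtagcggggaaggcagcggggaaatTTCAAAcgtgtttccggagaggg
Kif11, chr19:37376262-37376411, plus strand: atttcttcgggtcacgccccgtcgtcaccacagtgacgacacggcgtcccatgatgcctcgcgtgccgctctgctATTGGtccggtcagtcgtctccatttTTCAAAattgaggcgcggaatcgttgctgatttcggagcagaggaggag
Nek2, chr1:191821353-191821502, plus strand: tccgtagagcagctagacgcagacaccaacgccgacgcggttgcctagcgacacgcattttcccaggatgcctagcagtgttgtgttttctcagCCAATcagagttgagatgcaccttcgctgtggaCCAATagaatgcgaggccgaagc
Cenpf, chr1:189688057-189688206, minus strand: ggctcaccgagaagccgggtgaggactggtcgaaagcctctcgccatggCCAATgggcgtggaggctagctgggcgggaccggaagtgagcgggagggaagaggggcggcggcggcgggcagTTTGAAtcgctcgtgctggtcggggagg
Pttg1, chr11:43425952-43426101, minus strand: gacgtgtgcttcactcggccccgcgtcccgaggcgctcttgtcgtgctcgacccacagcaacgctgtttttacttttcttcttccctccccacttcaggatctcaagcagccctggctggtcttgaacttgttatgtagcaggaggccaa
Cdc20, chr4:118437314-118437463, minus strand: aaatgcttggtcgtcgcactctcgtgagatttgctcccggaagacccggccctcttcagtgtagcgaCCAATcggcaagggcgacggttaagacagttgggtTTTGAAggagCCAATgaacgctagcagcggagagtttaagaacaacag
Top2a, chr11:99024160-99024309, minus strand: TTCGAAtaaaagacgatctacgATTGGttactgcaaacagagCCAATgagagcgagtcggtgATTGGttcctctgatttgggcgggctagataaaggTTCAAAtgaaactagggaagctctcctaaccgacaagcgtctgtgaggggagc
The Ttk window holds 2 CCAAT sites and 1 CHR, Kif11 and Cenpf 1 of each, and Nek2 2 CCAAT sites with no CHR. Cdc20 holds 2 CCAAT sites and 1 CHR, and Top2a 3 and 2. None of these motifs was found in the Pttg1 window, which says only that these letters are not there. The Pttg1 window (43425952 to 43426101) lies inside the gene's annotated span (43420250 to 43426251, minus strand). The bases before the annotated 5′ end of Pttg1 are therefore not shown. The median log2 change was -0.12 over the 28 members with TTTGAA and -0.28 over the 12 without it, given as a description.

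Of the 7 cyclin, CDK1 and CDC25 genes, Cdc25a fell and 6 did not pass. Cdc25a (ENSMUSG00000032477, chromosome 9, 109875579 to 109893895 on the plus strand, GRCm38), whose phosphatase activates CDK2 at the start of S phase as well as CDK1, had 107 and 97.8 normalized counts in the knockdown-labelled libraries, against 146 and 185 in the control-labelled ones. Both libraries labelled knockdown were lower than both controls, and the fall was 1.6-fold (means 103 ± 6.74 and 166 ± 27.1, SD, n = 2 each; log2 change -0.68, SE 0.12, limma adjusted p = 0.0124). It passed in 17 of 19 alternatives (adjusted p 4.23e-29 to 0.0541), failing without knockdown 2 and without a variance trend. The other 2 phosphatase genes lay below the controls in both libraries without passing. Cdc25b, which acts at the centrosome before entry, was at 45.5 and 43.3 in the knockdown-labelled and 59.2 and 51.8 in the control-labelled libraries (log2 change -0.31, limma adjusted p = 0.0765). Cdc25c, a mitotic activator of CDK1, was at 17.6 and 16.5 in the knockdown-labelled and 22.6 and 21.5 in the control-labelled libraries (-0.35, limma adjusted p = 0.0953). CDK1 itself and its B-type cyclins did not pass. Cdk1 was at 92.3 and 94.6 in the knockdown-labelled and 110.0 and 91.4 in the control-labelled libraries (95% interval of the log2 change -0.35 to 0.15). Ccnb1 was at 99.2 and 87.4 in the knockdown-labelled and 104 and 95.7 in the control-labelled libraries (-0.34 to 0.13). Ccnb2 was at 208 and 187 in the knockdown-labelled and 232 and 201 in the control-labelled libraries (-0.37 to 0.11). For Cdk1, Ccnb1 and Ccnb2 the groups overlapped. Ccna2, cyclin A, did not pass either (325 and 299 in the knockdown-labelled and 333 and 381 in the control-labelled libraries, log2 change -0.19, limma adjusted p = 0.187). The row Ccnb1-ps, named as a pseudogene of Ccnb1, held 85.8 and 82.1 normalized counts in the knockdown-labelled libraries against 90.7 and 91.9 in the control-labelled ones, so reads of the pair may be split between them. Ccna2 overlaps Exosc9 on the opposite strand, and Exosc9 fell (log2 change -0.67, limma adjusted p = 0.00676), and no source says that counting used strand, which leaves the 2 genes' reads possibly mixed.

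Among 7 kinase and chromosomal passenger genes, Nek2 and Birc5 fell and 5 did not pass. Nek2 (ENSMUSG00000026622, chromosome 1, 191821444 to 191833050 on the plus strand, GRCm38), a centrosome kinase that separates the spindle poles, had 132 and 119 normalized counts in the knockdown-labelled libraries, against 173 and 192 in the control-labelled ones. The groups did not overlap, and Nek2 was 1.45-fold lower in the knockdown-labelled libraries (means 125 ± 9.25 and 182 ± 13.3, SD, n = 2 each; log2 change -0.54, SE 0.09, limma adjusted p = 0.0115). It passed in 17 of 19 alternatives (adjusted p 9.78e-17 to 0.124), failing without knockdown 2 and without a variance trend. Birc5 (ENSMUSG00000017716, chromosome 11, 117849251 to 117855743 on the plus strand, GRCm38), survivin, which brings the passenger complex to the centromere, had 154 and 147 normalized counts in the knockdown-labelled libraries, against 178 and 198 in the control-labelled ones (1.25-fold lower; log2 change -0.32, SE 0.09, limma adjusted p = 0.0404). It was near the threshold and passed in 10 of 19 alternatives (adjusted p 4.99e-08 to 0.364), and among others it did not pass without knockdown 1 or 2, with library size only, with upper-quartile scaling or after GC adjustment. Its partners in the same complex did not pass. Aurkb, the kinase, was at 160.1 and 159 in the knockdown-labelled and 168 and 153 in the control-labelled libraries (95% interval of the log2 change -0.20 to 0.19), with overlapping groups. Incenp, the scaffold, was at 199 and 199 in the knockdown-labelled and 197 and 213 in the control-labelled libraries (-0.23 to 0.15). Cdca8, borealin, was at 135 and 131 in the knockdown-labelled and 158 and 145 in the control-labelled libraries (-0.39 to 0.01). Whether Birc5 differs from its partners was not tested. Aurka, the spindle pole Aurora kinase, was at 189 and 188 in the knockdown-labelled and 185 and 203 in the control-labelled libraries, with overlapping groups. Plk1, a kinase of every step from entry to cytokinesis, was at 192 and 184 in the knockdown-labelled and 217 and 239.6 in the control-labelled libraries and lay just outside the threshold (log2 change -0.28, limma adjusted p = 0.0545).

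Of the 5 spindle checkpoint genes, Ttk and Mad2l1 fell and 3 did not pass. Ttk (ENSMUSG00000038379, chromosome 9, 83834689 to 83872389 on the plus strand, GRCm38), the kinase MPS1 that starts the checkpoint signal at unattached kinetochores, had 53.7 and 48.7 normalized counts in the knockdown-labelled libraries, against 99.4 and 89.6 in the control-labelled ones. Both libraries labelled knockdown were well under both controls, a 1.83-fold fall, the largest fall among the 49 genes in the fit reported (means 51.2 ± 3.51 and 94.5 ± 6.89, SD, n = 2 each; log2 change -0.87, SE 0.10, limma adjusted p = 0.00419). The log2 change lay between -0.94 and -0.75 over the 19 alternatives, and Ttk passed in 19 of 19 alternatives (adjusted p 4.07e-25 to 0.0306). Mad2l1 (ENSMUSG00000029910, chromosome 6, 66535390 to 66547220 on the plus strand, GRCm38) encodes MAD2, which binds and restrains CDC20, and had 112 and 109 normalized counts in the knockdown-labelled libraries, against 142 and 139.6 in the control-labelled ones. Replicates of each group were close and the groups apart (1.27-fold lower; log2 change -0.35, SE 0.08, limma adjusted p = 0.0234). Mad2l1 passed in 12 of 19 alternatives (adjusted p 4.61e-06 to 0.292), and failed without knockdown 1 or 2, with library size only, without a variance trend, in DESeq2 and after GC adjustment. Bub1, Bub1b and Bub3, the kinase and adaptors that relay the signal, did not pass. Bub1 was at 131 and 125 in the knockdown-labelled and 163 and 141 in the control-labelled libraries (95% interval of the log2 change -0.48 to -0.01). Bub1b, BUBR1, was at 381 and 368 in the knockdown-labelled and 394 and 384 in the control-labelled libraries (-0.23 to 0.13). Bub3 was at 126 and 131 in the knockdown-labelled and 137 and 148 in the control-labelled libraries (-0.35 to 0.05). All 3 lay below the controls in both libraries. Bub3 overlaps Fgfr2 on the opposite strand, a growth factor receptor gene that rose (log2 change 1.19, limma adjusted p = 0.0128).

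Among the 4 genes of anaphase, Pttg1 rose and 3 did not pass. Pttg1 (ENSMUSG00000020415, chromosome 11, 43420250 to 43426251 on the minus strand, GRCm38), securin, holds separase inactive until the APC/C destroys it, and had 49.1 and 55 normalized counts in the knockdown-labelled libraries, against 31.4 and 20.6 in the control-labelled ones. Both libraries labelled knockdown were above both controls, though the controls themselves differed (means 52.0 ± 4.16 and 26.0 ± 7.61, SD, n = 2 each). It was 2-fold higher (log2 change 1.00, SE 0.19, limma adjusted p = 0.0141) and passed in 18 of 19 alternatives (adjusted p 2.57e-32 to 0.0514), failing without a variance trend. The log2 change was 1.29 without control 1 and 0.71 without control 2, and the level in control 2 rested on 91 reads. Espl1, separase, the protease that securin inhibits, was at 357 and 348 in the knockdown-labelled and 303 and 308 in the control-labelled libraries, above the controls in both libraries without passing (log2 change 0.21, limma adjusted p = 0.0882). It passed with library size only (adjusted p = 0.0216), with upper-quartile scaling (adjusted p = 0.0381) and without either control. Over the 19 alternatives its adjusted p ranged over 0.00155 to 0.688. The APC/C activator Cdc20 was at 414 and 413 in the knockdown-labelled and 395 and 461 in the control-labelled libraries. Ube2c, the ubiquitin-conjugating enzyme of the APC/C, was at 238 and 230.4 in the knockdown-labelled and 256 and 264 in the control-labelled libraries. For Cdc20 the groups overlapped, and the 95% intervals of the log2 change were -0.27 to 0.18 for Cdc20 and -0.33 to 0.03 for Ube2c.

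Of the 7 kinetochore and centromere genes, Ndc80 and Cenpf fell and 5 did not pass. Ndc80 (ENSMUSG00000024056, chromosome 17, 71496100 to 71526857 on the minus strand, GRCm38), the microtubule-binding subunit of the outer kinetochore complex of that name, had 27.3 and 28.3 normalized counts in the knockdown-labelled libraries, against 39.8 and 38.2 in the control-labelled ones. The replicates were close and the groups apart (1.39-fold lower; means 27.8 ± 0.706 and 39.0 ± 1.11, SD, n = 2 each; log2 change -0.47, SE 0.11, limma adjusted p = 0.0251). Ndc80 passed in 14 of 19 alternatives (adjusted p 7.26e-05 to 0.226), and failed without knockdown 1 or 2, with library size only, without a variance trend and in DESeq2. The other subunits of its complex did not pass and were not tested against it. Nuf2, its direct partner, was at 32.5 and 37.2 in the knockdown-labelled and 41.9 and 47.5 in the control-labelled libraries (log2 change -0.35, limma adjusted p = 0.0795). Spc24 was at 82.0 and 79.9 in the knockdown-labelled and 90.5 and 99.3 in the control-labelled libraries (-0.23, limma adjusted p = 0.113). Spc25 was at 74.0 and 68.2 in the knockdown-labelled and 75.6 and 56.1 in the control-labelled libraries (0.12, limma adjusted p = 0.569). Nuf2 and Spc24 were below the controls in both libraries, while Spc25 overlapped them. Cenpf (ENSMUSG00000026605, chromosome 1, 189640606 to 189688086 on the minus strand, GRCm38), a large coiled-coil protein of the outer kinetochore, had 252 and 241 normalized counts in the knockdown-labelled libraries, against 342 and 289 in the control-labelled ones (1.27-fold lower; log2 change -0.35, SE 0.10, limma adjusted p = 0.0435). It passed in 9 of 19 alternatives (adjusted p 2.33e-12 to 0.313), failing among others without either knockdown library, with library size only, and after GC or length adjustment. Cenpe, the kinetochore kinesin, was at 122 and 114 in the knockdown-labelled and 118 and 121 in the control-labelled libraries. Cenpa, the histone H3 variant that marks the centromere, was at 191 and 180.1 in the knockdown-labelled and 177 and 174 in the control-labelled libraries. The 95% intervals of their log2 changes were -0.21 to 0.18 and -0.11 to 0.26.

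Of the 7 kinesins, Kif11 fell and 6 did not pass. Kif11 (ENSMUSG00000012443, chromosome 19, 37376403 to 37421859 on the plus strand, GRCm38), the kinesin-5 motor Eg5 that pushes the spindle poles apart, had 204 and 188 normalized counts in the knockdown-labelled libraries, against 312 and 314 in the control-labelled ones. The controls differed little and both libraries labelled knockdown were far below them, a 1.6-fold fall (means 196 ± 11.3 and 313 ± 1.70, SD, n = 2 each; log2 change -0.68, SE 0.08, limma adjusted p = 0.00435). The log2 change lay between -0.73 and -0.55 over the alternatives, and Kif11 passed in 19 of 19 alternatives (adjusted p 3.9e-24 to 0.0339). Kif20b, a kinesin of cytokinesis, lay just outside the threshold at 159 and 152 in the knockdown-labelled and 181 and 195 in the control-labelled libraries (log2 change -0.27, limma adjusted p = 0.0524). Kif20a, which carries the passenger complex to the midzone, was at 244 and 226 in the knockdown-labelled and 264 and 282 in the control-labelled libraries (-0.22, limma adjusted p = 0.104), and it overlaps Cdc23 on the opposite strand, which fell (log2 change -0.36, limma adjusted p = 0.0203). The remaining 4 motors did not pass. Kif23, of the centralspindlin complex, was at 115 and 112 in the knockdown-labelled and 133 and 112 in the control-labelled libraries, with overlapping groups. Kif2c, the centromeric microtubule depolymerase, was at 111 and 108 in the knockdown-labelled and 113 and 114 in the control-labelled libraries. Kif4, a chromosome-bound motor, was at 82.4 and 77.7 in the knockdown-labelled and 73.5 and 75.1 in the control-labelled libraries, above both controls. Kif18a, which dampens chromosome movement, was at 53.7 and 48.7 in the knockdown-labelled and 56.4 and 54.3 in the control-labelled libraries, and its values in the knockdown-labelled libraries equal those of Ttk in the deposited table, read for read. Their log2 changes lay between -0.11 and 0.11, with 95% intervals within -0.35 and 0.31.

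None of the 4 spindle assembly and cytokinesis genes passed in limma. At an unadjusted p below 0.05 the count was 0, and edgeR's test and DESeq2 called 0 and 0. Anln, anillin, which scaffolds the contractile ring, was at 339.9 and 326 normalized counts in the knockdown-labelled libraries, against 372 and 324 in the control-labelled ones. Tpx2, an activator of Aurora A on the spindle, was at 300.3 and 305 in the knockdown-labelled and 311 and 303 in the control-labelled libraries. Both genes' groups overlapped. Prc1, which bundles midzone microtubules, was at 177 and 176 in the knockdown-labelled and 215 and 174 in the control-labelled libraries. Ect2, the exchange factor that activates RhoA for cytokinesis, was at 218 and 207 in the knockdown-labelled and 221 and 205 in the control-labelled libraries, and both again had overlapping groups. The 95% intervals of the log2 change were -0.28 to 0.16 for Anln, -0.20 to 0.16 for Tpx2, -0.39 to 0.13 for Prc1 and -0.20 to 0.19 for Ect2, not adjusted over genes.

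Of the 7 genes of condensin and chromosome structure, Smc4 fell and 6 did not pass. Smc4 (ENSMUSG00000034349, chromosome 3, 69004738 to 69034623 on the plus strand, GRCm38), an ATPase core subunit of both condensins, had 214 and 196 normalized counts in the knockdown-labelled libraries, against 305 and 275 in the control-labelled ones. Both libraries labelled knockdown were below both controls (1.41-fold lower; means 205 ± 12.5 and 290.2 ± 21.2, SD, n = 2 each; log2 change -0.50, SE 0.09, limma adjusted p = 0.0123), and Smc4 passed in 17 of 19 alternatives (adjusted p 3.16e-17 to 0.142), failing without knockdown 2 and without a variance trend. Its ATPase partner Smc2 was at 279.7 and 275 in the knockdown-labelled and 319 and 299 in the control-labelled libraries (95% interval of the log2 change -0.34 to 0.03); the difference between the partners was not tested. The 3 other condensin I subunits did not pass. Ncapd2 was at 325 and 313 in the knockdown-labelled and 323 and 318 in the control-labelled libraries (-0.19 to 0.17), with overlapping groups. Ncapg was at 132 and 123 in the knockdown-labelled and 153 and 135 in the control-labelled libraries (-0.40 to 0.05). Ncaph was at 99.9 and 90.6 in the knockdown-labelled and 89.9 and 88.9 in the control-labelled libraries (-0.12 to 0.30), above both controls. The proliferation marker Mki67, which coats mitotic chromosomes, was at 343 and 349.6 in the knockdown-labelled and 389 and 368 in the control-labelled libraries (-0.31 to 0.06). Top2a, topoisomerase II alpha, was at 798 and 775 in the knockdown-labelled and 809 and 818 in the control-labelled libraries (-0.24 to 0.14). Foxm1, the transcription factor that activates many genes of this list, did not pass either, at 145 and 139.6 normalized counts in the knockdown-labelled libraries, against 127 and 139 in the control-labelled ones (log2 change 0.10, SE 0.09, limma adjusted p = 0.448; 95% interval -0.11 to 0.30).

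GC content moved with these changes. The longest coding transcripts of the 49 genes had a median GC of 47.3%, against 50.7% over all genes tested, and ranged over 38.3% to 56.1%. Of the 16 members lowest in GC (38.3% to 44.1%), 6 fell, with a median log2 change of -0.26, and of the 16 highest (50.3% to 56.1%), 2 fell, with a median of -0.05. Over the full range of GC 12.4% of all genes tested fell. Their share within each of these GC ranges was not computed, so the counts are not read as particular to the members. Spearman's rho between GC and log2 change was 0.26 over the 49 genes and 0.27 over all genes tested, a description over genes that share the same 4 libraries. After each library was adjusted for GC, the median of the members was -0.05, against -0.02 over all genes. Again 9 fell and 1 rose, against 12.2% and 9.13% of all genes, but Mad2l1, Cenpf and Birc5 no longer passed while Plk1 (adjusted p = 0.0167), Cdc25b (adjusted p = 0.039) and Ube2c (adjusted p = 0.0428) did, and 6 of the 9 falls were shared. The part of GC in the changes was not tested beyond this.

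**Figure D4:**
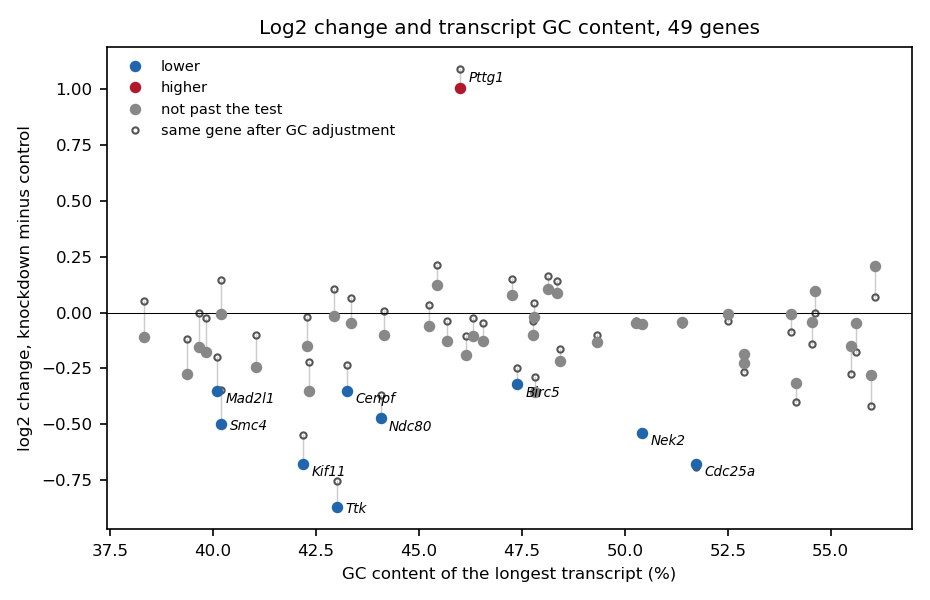
Log2 change (y axis, libraries labelled knockdown minus control) against the GC content of the longest transcript (x axis, %) for the 49 genes, with the value after GC adjustment as a small open circle joined to it. After adjustment the genes low in GC move up and those high in GC move down, while Ttk, Kif11, Cdc25a and Nek2 stay among the lowest.

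The wider mitotic machinery, 181 other genes in 10 lists of which 180 were tested, had 32 genes that fell (17.8%), 6 called higher (3.33%) and a median log2 change of -0.13, where 12.4% of all genes tested fell, 10.5% rose and the median was -0.01. With library size only, 14 were called lower and 10 higher, where 6.69% of all genes fell and 14.5% rose. The lists were chosen with earlier results of these data known, and each list's counts below stand beside those same 12.4% and 10.5% of all genes; with 7 to 27 genes a list, nothing particular to a list is read from them. Of 16 cohesin genes 5 fell and 11 did not pass. Rad21, the cleavable ring subunit, was at 422 and 395 in the knockdown-labelled and 579.7 and 570.0 in the control-labelled libraries (log2 change -0.49, limma adjusted p = 0.00923), and Stag1, Sgo2a and Esco2 fell too (-0.43, -0.59 and -0.48; limma adjusted p 0.0163 to 0.0279). Of 18 APC/C genes 4 fell, the subunits Cdc27 (112 and 109 in the knockdown-labelled and 155 and 159 in the control-labelled libraries), Cdc23 and Anapc5 and the inhibitor Fbxo5 (114 and 108 in the knockdown-labelled and 158 and 151 in the control-labelled libraries), also known as EMI1. Their log2 changes lay between -0.50 and -0.32 (limma adjusted p 0.0086 to 0.0293). Of 27 other centromere and kinetochore genes 4 fell and 2 rose. The genes named by the smallest p were Cenpp (log2 change -0.83), Ska1 (-0.49) and Ska3 (-0.37), of which the SKA proteins couple kinetochores to microtubules and fell, and Cenpt (0.39), which rose (limma adjusted p 0.015 to 0.0338).

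Of 22 centrosome genes 4 fell and 1 rose. Haus1 and Haus3, subunits of the augmin complex that branches spindle microtubules, fell (log2 change -0.54 and -0.51), as did Sass6, of the centriole cartwheel (-0.65), while Haus2, of the same complex, rose: it was at 138 and 129.9 in the knockdown-labelled and 92.0 and 80.8 in the control-labelled libraries (0.63, limma adjusted p = 0.00809; the others 0.0128 to 0.0309). Of 21 other kinase, phosphatase and CDK genes tested, 3 fell and 1 rose. Arpp19, a phosphatase inhibitor that keeps cells in mitosis, fell (87.3 and 86.4 in the knockdown-labelled and 147 and 145 in the control-labelled libraries; log2 change -0.74, limma adjusted p = 0.00378), and Pkmyt1, a kinase that inhibits CDK1, rose (53.0 and 51.2 in the knockdown-labelled and 36.4 and 32.4 in the control-labelled libraries; 0.59, limma adjusted p = 0.0133). The phosphatase subunit Ppp2r2d and the replication licensing factor Cdc6 fell (-0.42 and -0.40; limma adjusted p = 0.0241 and 0.0396). Of 16 cytokinesis genes 4 fell and 1 was called higher, with Sept11 at 364 and 323 in the knockdown-labelled and 550.1 and 634 in the control-labelled libraries, Sept2 at 207 and 192 in the knockdown-labelled and 284 and 289.9 in the control-labelled libraries and Rhoa at 249.7 and 236 in the knockdown-labelled and 359 and 336 in the control-labelled libraries (-0.78, -0.53 and -0.52; limma adjusted p 0.00564 to 0.0086), and Myh10 (-0.40, limma adjusted p = 0.0293).

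Of 27 other spindle motors and microtubule factors 4 fell and 1 rose, and the 4 with the smallest p were Ckap2l, Kpnb1, Aspm and Kif2a (log2 change -0.42, -0.43, -0.33 and -0.36; limma adjusted p 0.0145 to 0.0387). Of 11 further checkpoint genes, Tex14 (25.7 and 22.2 in the knockdown-labelled and 42.8 and 45.0 in the control-labelled libraries; -0.85, limma adjusted p = 0.00676) and Mad1l1, the partner of MAD2 (32.3 and 28.2 in the knockdown-labelled and 40.9 and 55.9 in the control-labelled libraries; -0.65, limma adjusted p = 0.0325), fell. Of 15 transcription factors of late cell cycle genes, Tfdp2, a partner of E2F proteins, fell (109 and 97.0 in the knockdown-labelled and 193 and 180.3 in the control-labelled libraries; -0.85, limma adjusted p = 0.00379), as did E2f4 (-0.53, limma adjusted p = 0.0304). None of the 7 genes of condensin II and chromosome structure passed in limma, of which 3 had an unadjusted p below 0.05, and edgeR's test and DESeq2 called 0 and 0. Outside the rule of the 4 smallest p in a list, and named after their values were seen, Smc3 (-0.28), Ska2 (-0.41) and Pcnt (-0.35) fell and Cenpw (0.39) and Kif18b (0.29) rose (log2 changes; limma adjusted p 0.032 to 0.0471). The 1 cytokinesis gene counted as higher, Aurkc, had 12 and 22 reads in the knockdown-labelled and 1 and 1 in the control-labelled libraries. It passed the filter on low counts only through the libraries where it was high, so its call is not read as a rise. Ccnb3 had too few reads to be tested. After GC adjustment 30 of the other mitosis genes were called lower and 7 higher, where 12.2% and 9.13% of all genes were. Of the rises named, Pkmyt1, Cenpt and Kif18b no longer passed in limma (adjusted p = 0.113, 0.0772 and 0.176), while Haus2 and Cenpw did. Of the falls named, Smc3, Ska2, Ska3, Kif2a, Aspm, Haus3 and Sass6 no longer passed, and the others did.

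**Figure D5:**
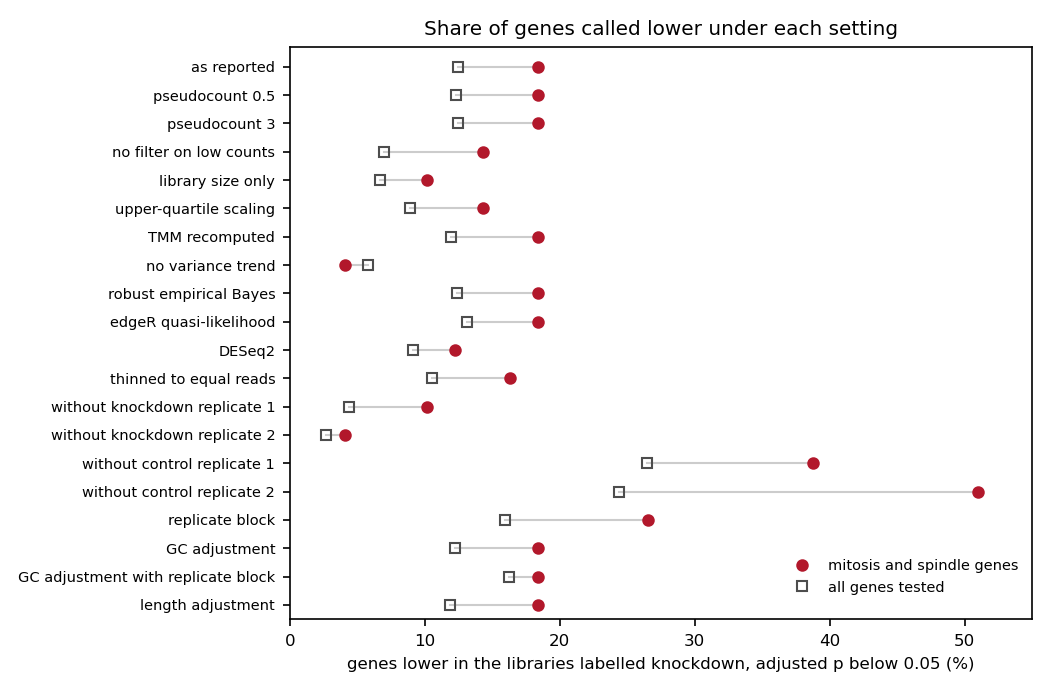
Share of genes lower in the knockdown-labelled libraries at an adjusted p below 0.05 (x axis, %), for the 49 mitosis and spindle genes (filled circles) and all genes tested (open squares), as reported and under each of 19 alternatives. Outside the fits with 1 library left out, the members' share runs from 4.08% without a variance trend (all genes 5.80%) to 26.5% with the replicate block (all genes 15.98%). Both shares are largest where a control-labelled library was left out. The members' share is above that of all genes in every setting shown except the fit without a variance trend.

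By the authors' deposited table, 7 members were lower and 1 higher at an adjusted p below 0.05, against 12.0% and 12.2% of the genes tested here. In that deposited table Ttk had a log2 fold change of -0.89, Kif11 -0.68, Cdc25a -0.68 and Pttg1 0.95. Its calls covered 8 of the 10 genes that fell or rose here. Birc5 (adjusted p = 0.225 in the authors' deposited table) and Cenpf (adjusted p = 0.172 in the authors' deposited table) did not pass there.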

How the data were processed

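Poly(A) libraries were made from 1 µg of total RNA and sequenced as single-end reads of 100 bp, per the labels' protocols. The submitters' processing notes name HTSeq 0.11.2, Bowtie2 2.3.4.3, edgeR 3.26.8, SAMtools 1.9 and build mm9, with no roles; the annotation release and the use of strand in counting were not given in the sources used here. In the deposited table the signal is counts over an effective library size. Whole reads were recovered for 100% of values within 0.001, and totals were 10646302 and 12009899 in the knockdown-labelled libraries and 13681765 and 4604200 in the control-labelled ones. Per the file headers, the deposited comparison holds each gene's p-value and adjusted p-value, its likelihood ratio (a score), its log2 fold change and its average log2 CPM.

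limma 3.58.1 in R 4.3.3, with a variance trend, was fitted to log2(signal + 1) of 14890 genes kept by filterByExpr of edgeR 4.0.16, two-sided, with Benjamini-Hochberg adjustment over all of them. The edgeR quasi-likelihood test and DESeq2 1.42.0 on the recovered reads were alternatives. With 2 libraries a group, the smallest p of an exact permutation test is 0.333. Fold changes understate those of low genes because of the pseudocount of 1. The fit was tested on simulated data. Replicates differed beyond sampling noise (chi-square per degree of freedom 2.00 between the knockdown and 13.1 between the control libraries). GC content and length are those of the longest coding transcript in GENCODE M21 (GRCm38), matched by ID for 32590 genes; coordinates are of that build and none was converted from mm9. Members and lists were chosen with earlier results of these data known. All members are named, and of the other lists up to 4 called genes with the smallest p. Genes outside that rule, chosen after their values were seen, are Exosc9 and Fgfr2 as overlapping genes and Ccnb1-ps as a copy, beside those named as such in the text.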

Additional observations from a re-analysis of the deposited data

How the results depend on the processing

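In the 19 alternatives, the log2 changes of single members were recomputed 931 times: in 850 the call was the same, in 38 a call was lost and in 43 gained, and no called gene changed sign, while 70 uncalled values did. The count of members that fell was 5 with library size only and 2 without a variance trend. The count that rose was 2 with library size only and with upper-quartile scaling, 0 without a variance trend, and 1 to 3 with each library left out. The median log2 change of the members was -0.0042 with library size only, -0.058 with upper-quartile scaling, -0.053 after GC adjustment with or without the replicate block, and -0.17 to -0.10 with each library left out. Of the other mitosis genes, 38 fell or rose as reported, 24 with library size only, 15 without a variance trend, 25 in DESeq2, and 5 to 89 with each library left out. Over all genes, 12.4% fell and 10.5% rose as reported, against 6.69% and 14.5% with library size only. Without a variance trend 5.80% of all genes fell and 7.17% rose, and in DESeq2 9.1% and 7.0%. The share of all genes called also moved with the library left out. The swings in these counts are therefore not read as particular to mitosis genes. Their cause was not tested. With the replicate block 13 members fell and 1 rose (where 15.98% of all genes fell and 15.1% rose, against 12.4% and 10.5% without it), with the calls of the fit reported kept and Cdc25b, Kif20b, Nuf2 and Plk1 added. The deviations of libraries numbered 1 correlated at 0.0356 across groups. That value over genes does not settle whether libraries of the same number were handled together, and nothing says that a number marks a shared culture. Control 2, with 4604200 reads, limits the precision of the lowest members, and intervals cover counting and replicate error of 2 libraries a group only.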

Other observations

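Per kilobase of the longest coding transcript, the members spanned a wide range of levels. Cdc20 stood highest, at 230.5 normalized counts per kilobase in the knockdown-labelled libraries and 239 in the control-labelled ones, and Cdc25c lowest, at 8.76 in the knockdown-labelled and 11.3 in the control-labelled libraries. Pttg1 stood at 31.1 in the knockdown-labelled libraries and at 15.5 in the control-labelled ones, where it was among the 4 lowest members. A transcript shorter than the longest one would raise such a value, so the order is approximate.

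Of the members, 12 overlap a protein-coding gene on the opposite strand. Since strand use in counting is not stated, the assignment of reads from the overlapping stretch is uncertain. The partner's level ranged widely: Cdc23, which overlaps Kif20a, had 255 and 243 normalized counts in the knockdown-labelled and 314 and 327 in the control-labelled libraries, while Tnnc2, which overlaps Ube2c, had 1.24 and 0.934 in the knockdown-labelled and 0.442 and 0 in the control-labelled libraries.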
